A study of Mus musculus with 12 samples.

Results

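The caspases are proteases that carry out cell death and inflammatory signalling, and 8 genes of this system were followed here in mouse kidney proximal tubules: Casp8, Casp9, Casp2, Casp6, Casp1 and Casp12, the caspase-9 activator Apaf1, and Cflar, which encodes the caspase-8 inhibitor cFLIP. They were taken from the 18193 genes that the array annotation names by a single symbol. The 8 genes had 17 such probe sets, and for each gene the brightest of them, by its mean across 12 arrays, is given unless stated otherwise. Proximal tubules, the nephron segment that takes back filtered glucose, had been prepared by Percoll centrifugation, a density separation, from mice aged 20 weeks on a normal diet. The groups were dB/dB catalase-Tg, which carry both factors, dB/dB without the transgene, catalase-Tg on the non-diabetic background, and wild type, with 3 arrays each. Mice of the dB/dB genotype lack normal leptin receptor signalling and develop obesity and diabetes, while catalase, the product of the transgene, breaks down hydrogen peroxide. The promoter and line of the transgene, the sex of the mice and whether a sample pools animals are not given in the sources used here. Nor do the labels state that the 3 samples of a group are 3 separate animals. The p-values therefore refer to the scatter among these samples. Part of it may be technical, and perhaps all of it outside wild type, where sex-linked genes differed between the samples.

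Caspases are made as inactive precursors. In the extrinsic route, a death receptor recruits the adaptor Fadd, which gathers caspase-8 until its molecules activate each other, and cFLIP binds the same complex and limits this step. In the intrinsic route, cytochrome c released from mitochondria makes Apaf1 assemble into the apoptosome, the wheel-shaped complex that activates caspase-9. Both initiators then cleave effector caspases, and most of the control lies in cleavage and binding of the proteins, which an mRNA measurement does not read. Death of tubule cells is a recognised feature of diabetic kidney disease.

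Sequence upstream of the start was available for all 8 genes in the RefSeq promoter table of GRCm38.p6, and 3 stretches of 250 bases are shown. They are those of Casp9 and Apaf1, the members with the smallest p over the 4 groups, and of Casp12, the member near the bottom of the scale on most arrays. Each is written 5′ to 3′ on the strand of its gene, with CpG dinucleotides in capitals. They lie at chr4:141793362-141793611 on the plus strand (Casp9), at chr10:91082744-91082993 on the minus strand (Apaf1) and at chr9:5345226-5345475 on the plus strand (Casp12).
Casp9: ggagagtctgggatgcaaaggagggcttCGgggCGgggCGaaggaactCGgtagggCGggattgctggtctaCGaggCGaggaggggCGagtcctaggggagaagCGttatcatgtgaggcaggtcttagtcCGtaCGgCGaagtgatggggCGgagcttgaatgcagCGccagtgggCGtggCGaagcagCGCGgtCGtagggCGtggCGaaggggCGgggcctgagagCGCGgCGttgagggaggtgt
Apaf1: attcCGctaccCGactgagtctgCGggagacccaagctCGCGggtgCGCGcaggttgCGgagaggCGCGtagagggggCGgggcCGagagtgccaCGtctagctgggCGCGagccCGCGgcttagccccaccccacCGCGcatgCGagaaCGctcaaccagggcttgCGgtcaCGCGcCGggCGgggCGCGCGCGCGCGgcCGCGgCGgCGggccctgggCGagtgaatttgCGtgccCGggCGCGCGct
Casp12: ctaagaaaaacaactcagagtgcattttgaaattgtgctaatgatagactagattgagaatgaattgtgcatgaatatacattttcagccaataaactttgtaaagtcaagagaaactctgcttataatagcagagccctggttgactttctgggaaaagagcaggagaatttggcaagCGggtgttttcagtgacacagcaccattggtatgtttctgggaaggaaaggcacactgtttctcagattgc

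The 2 apoptosome genes had CpG-dense stretches, with 42 CpG dinucleotides for Apaf1 and 25 for Casp9, against 1 for Casp12. Of the 27025 promoters in the table, 99.3% had no more CpG than Apaf1 and 90.8% no more than Casp9, with a median of 6. Casp1 also had 1 CpG, Casp8 had 5, Cflar 7, Casp6 11 and Casp2 17. The Sp-family letters GGGCGG were searched on both strands and stood 4 times in the Casp9 stretch and 2 times in that of Apaf1. They stood once each in those of Casp2 and Casp6 and were not in the other 4 windows, while 32.9% of all promoters held them. The letters TATAAA were found for Cflar alone among the members and in 13.0% of all promoters. Cflar and Casp8 are next to each other among the protein-coding genes of chromosome 1, and Casp1, Casp4 and Casp12 follow one another on chromosome 9. These letters describe the windows and were not tested against expression.

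Values are log2, on a scale where a difference of 1 is a 2-fold difference, and ran from a floor of 2.302 up to 15.66. Between 36.9% and 38.5% of probe sets on an array lay above 4. Some arrays stood apart. Wild type 1 correlated with its own group at a mean r of 0.954 across all probe sets and with dB/dB arrays at 0.987, and dB/dB catalase-Tg 1 did so at 0.961 and 0.983. These arrays and catalase-Tg 1 also had the lowest array weights, from 0.172 to 0.287, in limma's estimate of array quality. Xist, the RNA of the inactive X chromosome, read 11.91 (wild type 2) and 6.72 (wild type 3), and at most 2.67 on any other array. The Y-linked Eif2s3y was at the floor on wild type 2 and read at least 7.88 elsewhere. Wild type 1 thus read as male and wild type 2 as female, while wild type 3 carried both signals. All arrays of the other groups read as male, so comparisons with wild type also set a group of mixed sex against male samples. Markers of the labelled tissue were present, 11 of 11 tested and 10 above 4 on every array, but so were those of the loop and distal tubule, 7 of 8 of them above 4 on every array. Markers of other cells were present too, with 12 of 12 endothelial, 6 of 9 fibroblast and mural, 6 of 14 macrophage and leukocyte, 6 of 6 podocyte, 4 of 8 collecting duct and 8 of 8 loop and distal tubule markers above 4 on at least 3 arrays. Of the collecting duct list, Aqp2 was at the floor on all 12 arrays, and Scnn1g and Avpr2 were above 4 on none. Calb1, counted for the collecting duct, is also in the loop and distal tubule list. In such bulk RNA, fewer cells of a type and less RNA per cell cannot be told apart.

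Of the 8 genes, 6 had a probe set above 4 on at least 3 arrays and were tested, and Casp1 and Casp12 were not. Casp8, Cflar, Casp9, Casp2 and Casp6 lay above 4 on all 12 arrays. Apaf1 averaged 3.94, just below 4, and entered with 5 arrays above it, 3 of them wild type, so its filter and its difference from wild type are not independent. None of the 6 tested genes passed an adjusted p of 0.05 (limma, Benjamini-Hochberg over 18144 probe sets) in any of 7 comparisons or in the moderated F test over the 4 groups. The F test called 0.0386% of all probe sets tested. Its adjusted p was 0.337 for Casp9, 0.356 for Apaf1, 0.396 for Casp8, 0.407 for Cflar, 0.456 for Casp6 and 0.895 for Casp2. At an unadjusted p under 0.05 it took Casp9 and Apaf1, against 12.6% of all probe sets.

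**Figure D1:**
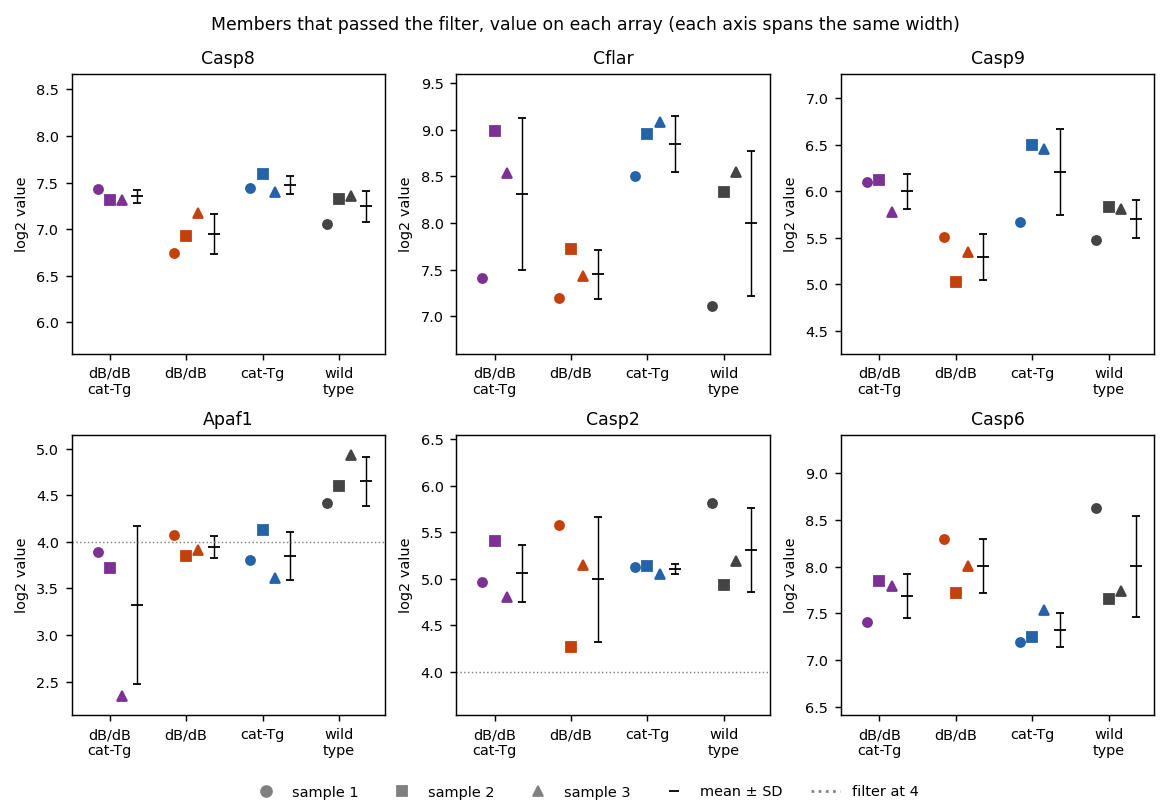
Log2 value on each array for the 6 genes that passed the filter, one panel per gene and one column per group, with the mean and SD of 3 arrays in black and the filter at 4 as a dotted line where it falls in the panel. Every panel spans the same number of log2 units. Casp8, Cflar and Casp9 are lowest on average in dB/dB arrays. The 3 wild-type Apaf1 points, without which Apaf1 would not pass the filter, lie above those of every other group.

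Casp8, the initiator of the death-receptor route, read 7.43, 7.31 and 7.31 in dB/dB catalase-Tg, 6.74, 6.93 and 7.18 in dB/dB, 7.44, 7.59 and 7.40 in catalase-Tg, and 7.06, 7.32 and 7.36 in wild-type tubules. Both transgenic groups lay wholly above the group of the same background without the transgene. Of all probe sets, 4.87% lay wholly higher in dB/dB catalase-Tg than in dB/dB, and 5.74% in catalase-Tg than in wild type. The share higher in both was not computed. The group means were 7.35 ± 0.07 in dB/dB catalase-Tg, 6.95 ± 0.22 in dB/dB, 7.47 ± 0.10 in catalase-Tg and 7.24 ± 0.17 in wild type (SD, n = 3 arrays each). Ranked by level, catalase-Tg came highest, then dB/dB catalase-Tg, wild type and dB/dB, and each pair of neighbours in that ranking overlapped. The whole range over 12 arrays was 0.85, the narrowest of the 6 genes.

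Cflar encodes the caspase-8 inhibitor of the same complex. Its brightest probe set read 7.41, 8.99 and 8.54 in dB/dB catalase-Tg, 7.19, 7.72 and 7.43 in dB/dB, 8.51, 8.95 and 9.09 in catalase-Tg, and 7.11, 8.34 and 8.55 in wild-type tubules. Sample 1 was the lowest of its group in every group, and in dB/dB catalase-Tg and wild type it lay more than 1 unit below the others. The means were 8.31 ± 0.81 in dB/dB catalase-Tg, 7.45 ± 0.26 in dB/dB, 8.85 ± 0.30 in catalase-Tg and 7.997 ± 0.78 in wild type, which ranks the groups as for Casp8, again with overlap between neighbours.

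The differences were smaller on the other Cflar probe sets. Another 3 were tested, and in falling order of brightness their F test had an adjusted p of 0.819, 0.948 and 0.942. Over both backgrounds the transgenic arrays minus those without it came to 0.86 (SE 0.32) for the brightest probe set, and to between 0.05 and 0.21 for the other 3. The dB/dB catalase-Tg minus dB/dB difference was 0.86 for the brightest and 0.22, 0.20 and 0.11 for the others in the same order. For the dimmest of these, 6 of 12 arrays held the identical value 6.57. The fifth probe set averaged 3.37 and was above 4 on no array. Which transcripts each probe set reads was not analysed here.

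**Figure D2:**
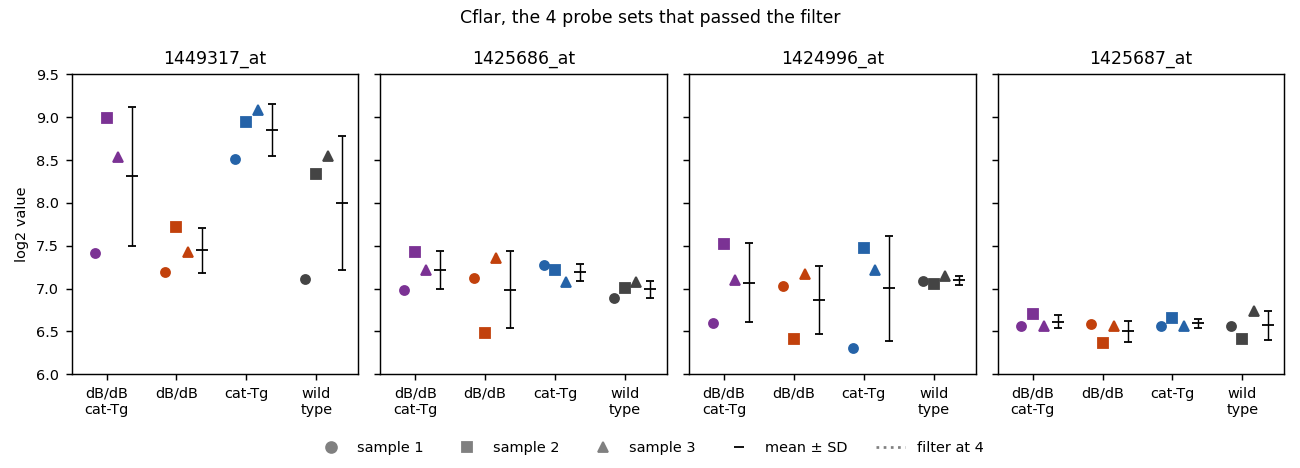
Log2 value on each array for the 4 Cflar probe sets that passed the filter, from brightest to dimmest on a shared axis, by group, with the mean and SD of 3 arrays in black. The spread between groups in the leftmost panel, the brightest probe set, whose means run between 7.45 and 8.85, is not seen in the other 3 panels.

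The 5 arrays with the lowest Cflar, at 7.72 or below, were the 3 dB/dB arrays, wild type 1 and dB/dB catalase-Tg 1. These were also the 5 arrays with the highest endothelial marker score, the mean deviation of the 12 markers from their own mean, at 0.84 or above, against -0.06 or below on the other 7. By group the endothelial score ran from -1.19 to 1.49 in dB/dB catalase-Tg, 0.84 to 1.82 in dB/dB, -1.83 to -0.12 in catalase-Tg and -1.47 to 1.55 in wild type. Proximal tubule scores ran from -0.42 to 1.15 in dB/dB catalase-Tg, -0.79 to -0.33 in dB/dB, -0.79 to 1.21 in catalase-Tg and -2.32 to 0.71 in wild type. The markers in this score include Kap, which ran from 8.46 to 15.29, and Slc7a13, from 2.87 to 12.55. On catalase-Tg 1, at a score of -0.79, the markers Slc34a1 (14.07) and Slc5a2 (13.6) were the highest of the 12 arrays. The score is therefore not a plain measure of proximal tubule content. With a score of endothelial, podocyte and mural markers as a covariate, the Cflar difference over both backgrounds came to 0.19 (adjusted p = 0.860, limma), against 0.86 without it. The marker scores themselves differed between the groups, so this fit cannot tell the share of these cells from the group. The part of these cells in the Cflar values was not tested.

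Casp9, the initiator activated by the apoptosome, read 6.10, 6.12 and 5.78 in dB/dB catalase-Tg, 5.51, 5.02 and 5.35 in dB/dB, 5.67, 6.49 and 6.45 in catalase-Tg, and 5.47, 5.84 and 5.81 in wild-type tubules. The dB/dB catalase-Tg arrays all lay above the dB/dB arrays, as did those of 4.87% of all probe sets, while neighbours in level overlapped. Group means were 6.00 ± 0.19 in dB/dB catalase-Tg, 5.29 ± 0.25 in dB/dB, 6.20 ± 0.47 in catalase-Tg and 5.70 ± 0.20 in wild type, ranked as for Casp8 and Cflar. Its other 2 probe sets averaged 2.54 and 2.36, near the floor, and neither was tested. Over the 12 arrays Casp9 correlated with the proximal tubule score at r = 0.71, and with the scores of the other marker lists at -0.68 to -0.46. For Casp8 these were 0.56 and -0.69 to -0.45. The part of these cells in the Casp9 and Casp8 values was not tested.

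Apaf1, the scaffold of the apoptosome, read 3.89, 3.72 and 2.35 in dB/dB catalase-Tg, 4.08, 3.85 and 3.91 in dB/dB, 3.81, 4.13 and 3.61 in catalase-Tg, and 4.41, 4.60 and 4.93 in wild-type tubules. All wild-type arrays lay above every array of the other 3 groups, which overlapped one another. Of all probe sets, 8.91% lay wholly lower in dB/dB than in wild type, and 7.8% in catalase-Tg than in wild type. The share below wild type in all 3 other groups was not computed. Apaf1 passed the filter only with its wild-type arrays, so its order of groups is not independent of the filter. The means were 3.32 ± 0.85 in dB/dB catalase-Tg, 3.95 ± 0.12 in dB/dB, 3.85 ± 0.26 in catalase-Tg and 4.65 ± 0.26 in wild type. The array dB/dB catalase-Tg 3, at 2.35, was close to the floor, and the second Apaf1 probe set was at the floor on all 12 arrays. The wild-type group is also the one that holds both arrays with Xist signal and wild type 1, and the Apaf1 value of wild type 1 was the lowest of the 3.

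Casp2, an initiator activated in the PIDDosome after DNA damage or centrosome defects, read 4.97, 5.40 and 4.80 in dB/dB catalase-Tg, 5.57, 4.26 and 5.15 in dB/dB, 5.13, 5.14 and 5.05 in catalase-Tg, and 5.81, 4.94 and 5.19 in wild-type tubules. The 4 groups overlapped throughout, and their means, from 4.996 in dB/dB to 5.31 in wild type, lay closer together than the SD of 0.67 within dB/dB. Its p was the largest of the 6 genes in the F test.

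Casp6, an effector caspase that cleaves lamin A, read 7.41, 7.84 and 7.79 in dB/dB catalase-Tg, 8.29, 7.71 and 8.01 in dB/dB, 7.19, 7.24 and 7.53 in catalase-Tg, and 8.62, 7.65 and 7.74 in wild-type tubules. The catalase-Tg arrays lay below every wild-type array, as did those of 7.8% of all probe sets. Means were 7.68 ± 0.24 in dB/dB catalase-Tg, 8.004 ± 0.29 in dB/dB, 7.32 ± 0.18 in catalase-Tg and 8.004 ± 0.54 in wild type. The score of the loop and distal tubule markers, all 8 of 8 tested, ran from 0.21 to 0.99 in dB/dB catalase-Tg, 1.05 to 1.53 in dB/dB, -2.44 to -1.52 in catalase-Tg and -1.70 to 1.66 in wild type, and was lowest on average in catalase-Tg, the group with the lowest Casp6 mean. The part of these cells in the Casp6 values was not tested.

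Casp12, an endoplasmic reticulum caspase that has been linked to stress of that organelle in mice, was not tested, and its brighter probe set lay below 4 on all 12 arrays. That probe set read 3.89, 2.91 and 2.39 in dB/dB catalase-Tg, 3.65, 2.82 and 3.49 in dB/dB, 2.40, 2.39 and 2.39 in catalase-Tg, and 3.90, 2.39 and 2.37 in wild-type tubules. The second read 4.40, 2.43 and 2.41 in dB/dB catalase-Tg, 3.10, 2.52 and 3.65 in dB/dB, 2.43, 2.40 and 2.302 in catalase-Tg, and 3.12, 2.44 and 2.43 in wild type. The same 4 arrays were highest on both, namely dB/dB 1, dB/dB 3, dB/dB catalase-Tg 1 and wild type 1.

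Those 4 arrays were also the 4 with the highest endothelial score, at 1.38 or above, and the highest fibroblast and mural score, at 1.86 or above, over 6 of 9 markers. The part of these cells in the Casp12 values was not tested. Without a filter, Casp12 differed by 0.44 (SE 0.49, adjusted p = 0.996, limma) for dB/dB minus wild type and by 0.56 (SE 0.35, adjusted p = 0.741) for dB/dB over both transgene states.

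Casp1, the inflammasome caspase that matures interleukin-1β and interleukin-18, was above 4 on dB/dB 2 alone. It read 3.58, 3.50 and 3.33 in dB/dB catalase-Tg, 3.33, 4.19 and 3.33 in dB/dB, 3.33, 2.89 and 2.91 in catalase-Tg, and 3.33 on all 3 wild-type arrays. On 7 of 12 arrays the value was the same, 3.333, so most of them hold no order. Without a filter the difference for dB/dB over both transgene states was 0.36 (SE 0.16, adjusted p = 0.741, limma). The array dB/dB 2 also had the highest macrophage and leukocyte score, 1.41, over the 6 of 14 markers tested, and Cd68, Adgre1, Itgam, C1qa and C1qc were above 4 on no array. The part of such cells was not tested.

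**Figure D3:**
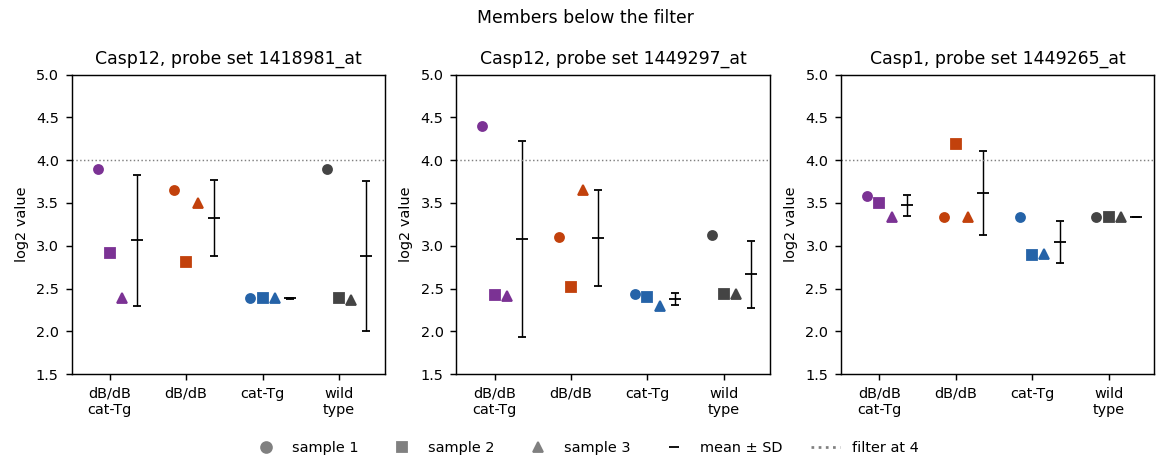
Log2 value on each array for both Casp12 probe sets and the Casp1 probe set, by group, with the mean and SD of 3 arrays in black and the filter at 4 dotted. Casp12 lies above 3 on the same 4 arrays in both panels, and 7 Casp1 points lie at 3.33.

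**Figure D4:**
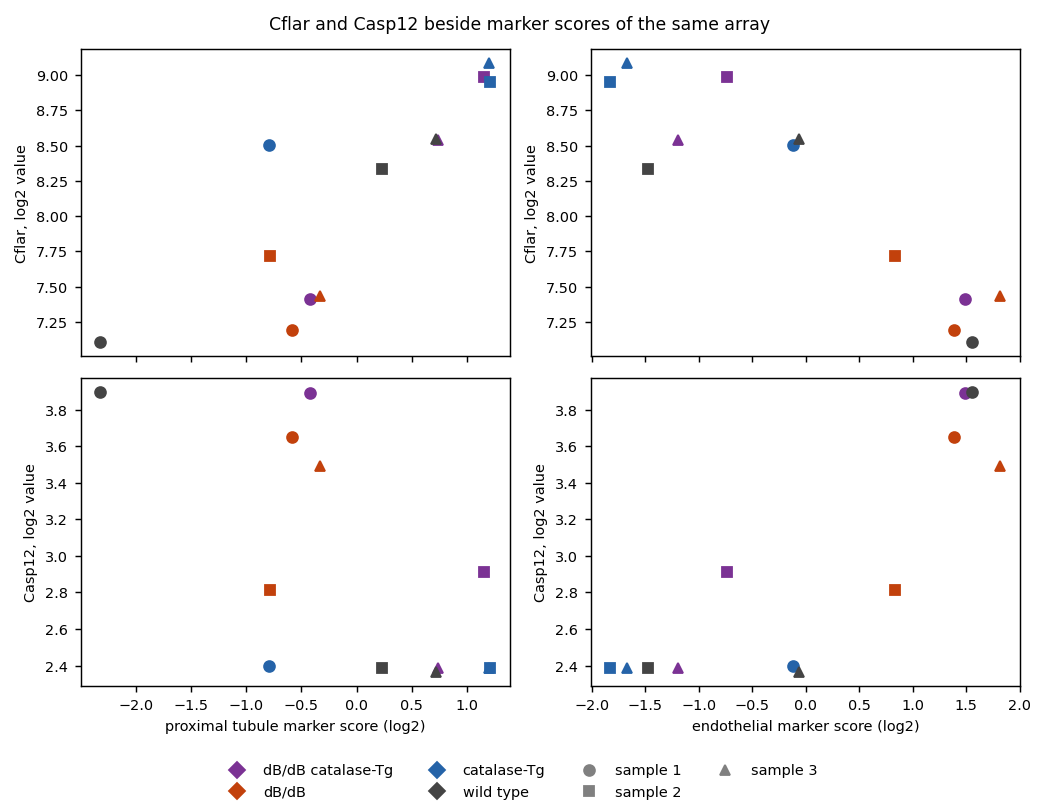
Cflar and Casp12 (log2 value, vertical axes) plotted against the proximal tubule and endothelial marker scores of the same array (log2, horizontal axes), 1 point per array, coloured by group with a symbol per sample number. The 5 arrays at an endothelial score of 0.84 or above hold the 5 lowest Cflar values, and the 4 at 1.38 or above the 4 highest Casp12 values.

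The transgene in diabetic mice was read from dB/dB catalase-Tg minus dB/dB. Casp9 lay higher by 0.70 (SE 0.25, adjusted p = 0.636, limma), Casp8 by 0.40 (SE 0.17) and Cflar by 0.86 (SE 0.45), while Apaf1 differed by -0.62 (SE 0.36), Casp6 by -0.32 (SE 0.28) and Casp2 by 0.06 (SE 0.34). None of the 6 passed, against 0.00551% of all probe sets. At an unadjusted p under 0.05 there were 2, Casp9 and Casp8, against 7.5% of all probe sets. The groups did not overlap for these 2 genes, both higher, against 16% of all probe sets without overlap in either direction and 4.87% that were higher. The median of the 6 differences was 0.23, against -0.02 over all probe sets. Without dB/dB catalase-Tg 3 the Apaf1 difference was -0.14.

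The calls in dB/dB catalase-Tg minus dB/dB moved with the arrays that stood apart. Without the 3 low-weight arrays, sample 1 of dB/dB catalase-Tg, of catalase-Tg and of wild type, Cflar was higher by 1.31 (adjusted p = 0.0049, limma). Casp9 was then higher by 0.65 (adjusted p = 0.0331, limma), but 27.8% of all probe sets passed. The 3 arrays were picked by their weights, which come from these same values. Leaving them out lowers the scatter within groups, so these p-values are no separate support. With array weights the counts were 3 genes, Cflar at 1.33, Casp9 at 0.57 and Apaf1 at -0.96, and 38.5% of all probe sets. For Apaf1 that fit gave a weight of 2.75 to dB/dB catalase-Tg 3, whose value of 2.35 was close to the floor. The weight of dB/dB catalase-Tg 1 was 0.17. With every array at equal weight and any single array left out, none of the 6 passed in any comparison.

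The transgene without diabetes was read from catalase-Tg minus wild type. Casp6 differed by -0.68 (SE 0.28, adjusted p = 0.533, limma), Apaf1 by -0.80 (SE 0.36), Cflar by 0.85 (SE 0.45), Casp9 by 0.50 (SE 0.25), Casp8 by 0.23 (SE 0.17) and Casp2 by -0.21 (SE 0.34). None passed, against 0.022% of all probe sets, and at an unadjusted p under 0.05 there were 2, Casp6 and Apaf1, against 9.15%. The groups did not overlap for 3 genes, against 13.5% of all probe sets. Casp6 and Apaf1 were lower, as were 7.8% of all probe sets, and Casp8 was higher, as were 5.74%. For Apaf1 this is not independent of the filter, which it passed only with its wild-type arrays. Wild type 1 bore on 4 of these values: without it the difference was -0.37 for Casp6, 0.41 for Cflar, 0.14 for Casp8 and 0.04 for Casp2. Without wild type 2 and wild type 3, the arrays with Xist signal, wild type was left with wild type 1 alone, an array that stood apart and had the highest Casp6 value of the series. The Casp6 difference was then -1.30 (adjusted p = 0.0285, limma), and 12.02% of all probe sets passed.

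Taking both backgrounds together, the average transgene difference was 0.60 for Casp9 (SE 0.18, 95% confidence interval 0.21 to 0.99, adjusted p = 0.186, limma). It was -0.71 for Apaf1 (SE 0.25, adjusted p = 0.210), 0.86 for Cflar (SE 0.32, adjusted p = 0.216), 0.32 for Casp8 (SE 0.12, adjusted p = 0.217), -0.50 for Casp6 (SE 0.19, adjusted p = 0.230) and -0.07 for Casp2 (SE 0.24, adjusted p = 0.893). None passed, against 0.0276% of all probe sets. At an unadjusted p under 0.05 there were 5 of the 6, against 18.1% of all probe sets. These are not separate results, as Casp8 went with Cflar (r = 0.70) and Casp9 (r = 0.76) over the 12 arrays, and Cflar with Casp9 (r = 0.69). The members were also chosen with earlier results of these data known, and Apaf1 passed the filter through its wild-type arrays. Setting these shares side by side is therefore not a test of the members. Without dB/dB catalase-Tg 3 the Apaf1 value was -0.47. With the 3 low-weight arrays left out, Cflar (0.95, adjusted p = 0.00868, limma) and Casp9 (0.65, adjusted p = 0.0173) passed, as did 20.5% of all probe sets. Without wild type 2 and wild type 3 it was Casp6 (-0.81, adjusted p = 0.0191, limma) and Cflar (1.30, adjusted p = 0.0282), with 18.6% of all probe sets. With the covariate of endothelial, podocyte and mural markers the values were 0.53 for Casp9, 0.30 for Casp8, -0.49 for Apaf1, -0.35 for Casp6 and 0.23 for Casp2, none past the threshold.

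**Figure D5:**
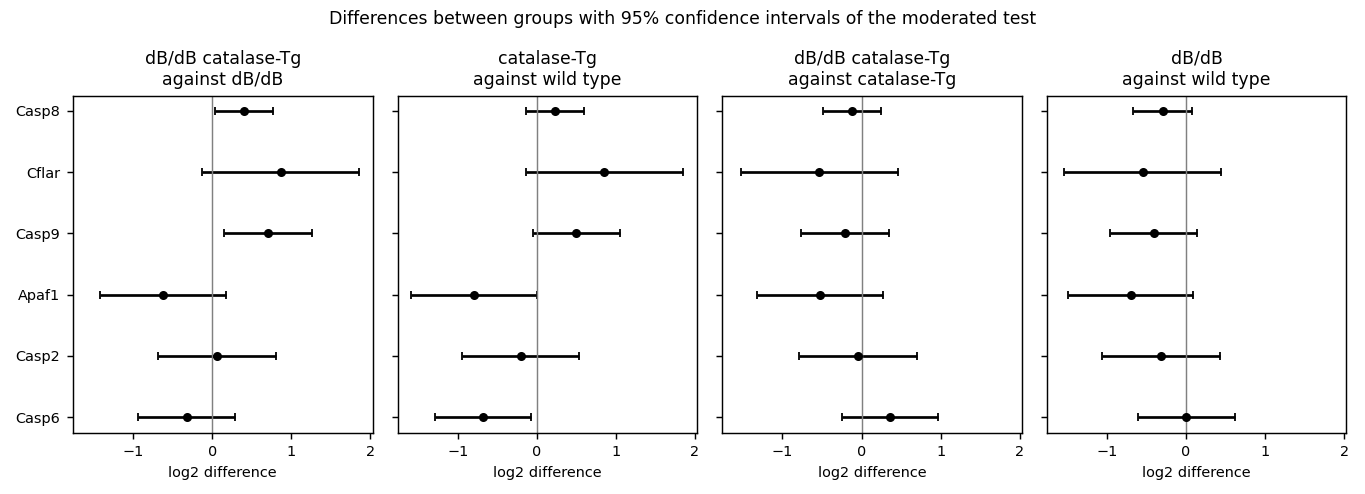
Log2 differences of the 6 tested genes in the 4 comparisons of 2 groups, with 95% confidence intervals from limma's moderated test and a grey line at 0. The intervals of Casp8 and Casp9 in the leftmost panel, and of Casp6 and Apaf1 in the next, exclude 0 before adjustment, and none of the 6 passes after adjustment.

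The diabetic background without the transgene was read from dB/dB minus wild type, which shares its wild-type arrays with catalase-Tg minus wild type and its dB/dB arrays with dB/dB catalase-Tg minus dB/dB. Apaf1 differed by -0.70 (SE 0.36, adjusted p = 0.767, limma), Cflar by -0.55 (SE 0.45), Casp9 by -0.41 (SE 0.25), Casp2 by -0.32 (SE 0.34) and Casp8 by -0.30 (SE 0.17), while Casp6 was level at 0.00 (SE 0.28). None passed and neither did any other probe set (0% of all), and at an unadjusted p under 0.05 there were again 0 of the 6, against 4.16% of all probe sets. Apaf1 alone did not overlap, against 11.4% of all probe sets, and it was lower, as were 8.91%. Because Apaf1 passed the filter only with its wild-type arrays, its place below wild type is no separate support for a difference. The median of the 6 differences was -0.36, against -0.11 over all probe sets. Without dB/dB 2 the Casp2 difference was 0.05. With the 3 low-weight arrays left out, the Cflar difference was -0.995 (adjusted p = 0.0132, limma), when 26.9% of all probe sets passed.

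Among transgenic mice, dB/dB catalase-Tg minus catalase-Tg was 0.36 for Casp6, -0.54 for Cflar, -0.53 for Apaf1, -0.21 for Casp9, -0.12 for Casp8 and -0.05 for Casp2. The groups overlapped for all 6, whereas 16% of all probe sets did not overlap, 6.67% being higher and 9.35% lower. None passed (adjusted p from 0.789 to 0.980, limma), against 0.0276% of all probe sets, and none had an unadjusted p under 0.05, against 6.86%. The Cflar difference was -0.085 without dB/dB catalase-Tg 1, and that of Apaf1 -0.040 without dB/dB catalase-Tg 3. Averaged over both transgene states, the dB/dB difference was -0.61 for Apaf1 (SE 0.25, adjusted p = 0.399, limma), -0.54 for Cflar, -0.31 for Casp9, -0.21 for Casp8, -0.18 for Casp2 and 0.18 for Casp6. None passed, against 0.0165% of all probe sets, and Apaf1 alone had an unadjusted p under 0.05, against 12.2%. The wild-type arrays that took Apaf1 past the filter enter this difference, so the filter and the difference are not independent. Without dB/dB catalase-Tg 3 the Apaf1 value was -0.37.

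Whether the transgene difference itself changed with diabetes was tested by the interaction. It ran from 0.01 for Cflar to 0.36 for Casp6, with none of the 6 passing (adjusted p = 1.00 for each, limma), against 0.00551% of all probe sets, and none had an unadjusted p under 0.05, against 1.64%. The median SE of these interactions was 0.43, so this test is less precise than those of 2 groups.

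The other genes of the system were taken from 5 lists with 48 entries, of which 42 were named on the array and 26 tested. None was higher and none lower at an adjusted p of 0.05 in any of the 7 comparisons (limma), and at an unadjusted p under 0.05 the count was at most 2 of 26, against 1.64% to 18.1% of all probe sets by comparison. In the death-receptor list, 7 of 13 named genes were tested. Fadd, the adaptor that recruits caspase-8, read 5.90 ± 0.26 in dB/dB catalase-Tg, 6.04 ± 0.17 in dB/dB, 6.53 ± 0.13 in catalase-Tg and 6.18 ± 0.07 in wild type. Its dB/dB catalase-Tg minus catalase-Tg difference was -0.63 (SE 0.18, adjusted p = 0.594, limma). Tnfrsf1a, a receptor for tumour necrosis factor, had an F test adjusted p of 0.625.

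Of the mitochondrial factors and inhibitors, 9 of 11 were tested. Birc2, a ubiquitin ligase of the inhibitor of apoptosis family, had an average transgene difference of -0.44 (SE 0.14, adjusted p = 0.192, limma), and Xiap, the inhibitor that binds caspase-9 directly, of -0.47 (SE 0.22). Birc2 read 7.35, 7.13 and 7.10 in dB/dB catalase-Tg, 7.89, 7.44 and 7.54 in dB/dB, 7.18, 7.38 and 7.15 in catalase-Tg, and 7.95, 7.41 and 7.69 in wild type. Both transgenic groups lay below the group of the same background without the transgene. Of all probe sets, 11.1% lay wholly lower in dB/dB catalase-Tg than in dB/dB, and 7.8% in catalase-Tg than in wild type. The share lower in both was not computed.

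Of the inflammasome list, 3 of 8 named genes were tested. Pycard, the adaptor that recruits caspase-1, read 8.98, 7.88 and 7.70 in dB/dB catalase-Tg, 9.73, 9.33 and 8.94 in dB/dB, 7.86, 6.46 and 5.61 in catalase-Tg, and 9.82, 7.41 and 6.50 in wild type. Sample 1 was the highest in each group. Its average dB/dB difference was 1.48 (SE 0.57, adjusted p = 0.389, limma) and its average transgene difference -1.21 (SE 0.57, adjusted p = 0.292). Il18, a caspase-1 substrate, had an F test adjusted p of 0.624.

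Of the substrates, 7 of 8 were tested. Sptan1, a spectrin cleaved in dying cells, had an average transgene difference of -0.34 (SE 0.13, adjusted p = 0.228, limma), and Dffa, the inhibitor of the DNA-cutting nuclease, an F test adjusted p of 0.542. Of the other caspases, Casp4, the neighbour of Casp12 and Casp1, was not tested. It read 3.48, 2.54 and 2.46 in dB/dB catalase-Tg, 2.65, 3.08 and 4.30 in dB/dB, 2.34, 2.302 and 2.54 in catalase-Tg, and 4.57, 2.50 and 2.71 in wild type.

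The genes whose values over the 12 arrays were most like those of each tested member were sought among 9743 genes. For Cflar these were Sap30 (r = 0.98) and St8sia1 (r = 0.98), for Casp9 Cdca4 and Alad (both 0.92) and for Casp8 Slc7a2 (0.91) and Dact2 (0.89). For Casp6 they were Smagp and B3gnt2 (both 0.94), for Casp2 Ywhae and Nkiras2 (both 0.92) and for Apaf1 Zfp846 (0.89) and BC005624 (0.85). These coefficients describe 12 arrays that share tissue preparation and groups, and the highest of so many coefficients is high by selection.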

How the data were processed

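RNA of 12 samples of proximal tubules was hybridised to 1 Affymetrix mouse array each, and the groups were taken from the sample titles, with 3 arrays per group. The values the authors deposited are log2 signals of probe sets, obtained with GCRMA, which corrects background and normalizes between arrays, per the submitters' processing notes. Those notes also name limma. Versions and batches are not given in the sources used here. They were used without renormalizing. Precision is limited by how many arrays there are.

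The file lists 45101 probe sets, and its 64 array controls were dropped. Of the 45037 kept, the array annotation gives 1 gene symbol to 34945, more than 1 to 932 and no symbol to 9160, and genes were named only from the first kind. Looked up in the RefSeq gene table of GRCm38.p6, the symbols of 34741 of those 34945 probe sets matched and 0 were updated.

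Probe sets above 4 on at least 3 of 12 arrays (18144) were tested by limma (version 3.58.1, run under R 4.3.3), fitting 1 mean per group, with Benjamini-Hochberg adjustment over all of them at 0.05. The test was run on simulated data with independent noise and added differences of at least 1 log2 unit. That run does not show how well smaller differences, such as those of the members, are found. SE is the standard error from the moderated test, and SD the standard deviation over the arrays of a group. The average transgene and dB/dB differences weight both states of the other factor equally. A marker score is the mean deviation of the tested markers of a list from their means over the 12 arrays.

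The genes named are the 8 members, the 2 genes most like each tested member, and from each of 5 pathway lists the genes past the threshold or else the 2 with the smallest F test p. Casp4 and the markers at the bottom of the scale were added after their values had been seen. Members and lists were chosen with earlier results of these data known.

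Arrays with the same sample number deviated together in catalase-Tg and wild type (r from 0.200 to 0.396 across probe sets). They also did so in dB/dB catalase-Tg and catalase-Tg (0.426 to 0.607). Arrays with different numbers also reached 0.357 and 0.558 in these comparisons, so the numbers may not mark true pairs. The main fit was unpaired, and the numbers entered only in the replicate block, an alternative. Alternatives covered the filter, spread estimate, array weights, normalization, probe set, samples in the fit, replicate block, a marker covariate and arrays left out.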

Additional observations from a re-analysis of the deposited data

How the results depend on the processing

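With each of the 12 arrays left out in turn (without replicate 1, 2 or 3 of a group), 0 of the 6 tested genes passed in each of the 7 comparisons and in the F test. The count also stayed at 0 without a filter, with the stricter filter above 6 (which drops Apaf1 and Casp2), with the other spread estimate, both other normalizations, the marker covariate, the groups of a comparison alone and 1 probe set per gene. With the replicate block it was 0 in every comparison, so pairing changed no call. Same-numbered arrays correlated at 0.0974 to 0.165 for dB/dB and wild type and at -0.130 to 0.110 for dB/dB catalase-Tg and dB/dB. The block was applied to these comparisons too.

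Without the 3 low-weight arrays, sample 1 of dB/dB catalase-Tg, of catalase-Tg and of wild type, the counts were 1 for dB/dB minus wild type, 2 for dB/dB catalase-Tg minus dB/dB, 2 for the average dB/dB difference (Cflar -0.63, Casp9 -0.53, with 19.4% of all probe sets), 2 for the average transgene difference (20.5%) and 2 in the F test (31.7%). With array weights they were 3 for dB/dB catalase-Tg minus dB/dB, 3 for the average transgene difference (26.4%) and 5 in the F test, all but Casp2, when 42.8% of all probe sets passed it. Without wild type 2 and wild type 3 they were 1 for catalase-Tg minus wild type and 2 for the average transgene difference (18.6%), with the lone wild-type array assumed to vary like the other groups. The cause was not tested. The 3 low-weight arrays were picked from these same values, so the counts without them are no separate support.

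Of 557 single-gene results under settings other than leaving out 1 array, 505 kept direction and side of the threshold, 23 newly passed and 29 changed sign, none of those past the threshold. The changed signs by setting follow, as log2 differences. Without wild type 2 and wild type 3, Cflar was 0.34 and Casp6 -0.62 for dB/dB minus wild type, Casp6 -0.13 for the average dB/dB difference, and the interaction was -0.016 for Casp8, -0.88 for Cflar, -0.027 for Casp9 and -0.060 for Apaf1. With array weights, the interaction was -0.097 for Casp9, -0.091 for Apaf1 and -0.058 for Casp2, and Casp2 was 0.038 for dB/dB minus wild type, -0.13 for dB/dB catalase-Tg minus dB/dB and 0.0088 for the average dB/dB difference. Without the 3 low-weight arrays, Casp2 was 0.032 for catalase-Tg minus wild type, 0.0087 for dB/dB catalase-Tg minus catalase-Tg and 0.070 for the average transgene difference, and the Apaf1 interaction was -0.013. With the marker covariate, Casp2 was 0.082 for catalase-Tg minus wild type and 0.23 for the average transgene difference, Casp6 -0.099 for dB/dB minus wild type, and the Cflar interaction -0.048. Quantile normalization gave -0.030 for the Cflar interaction and 0.029 for the average transgene difference of Casp2, and median centring -0.063 for Casp6 in dB/dB minus wild type. For Cflar, the third-brightest probe set gave -0.094 for catalase-Tg minus wild type and 0.067 for dB/dB catalase-Tg minus catalase-Tg, where the second gave 0.022 and the fourth 0.014, and the second gave 0.0086 for the average dB/dB difference.

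With 1 array left out, the interaction ran from -0.109 to 0.662 for Apaf1, -0.0968 to 0.558 for Casp2, -0.0638 to 0.348 for Casp9 and -0.324 to 0.464 for Cflar. Casp2 ran from -0.605 to 0.0493 for dB/dB minus wild type, -0.394 to 0.0440 for catalase-Tg minus wild type, -0.304 to 0.351 for dB/dB catalase-Tg minus dB/dB, -0.219 to 0.0794 for dB/dB catalase-Tg minus catalase-Tg, -0.326 to 0.00089 for the average dB/dB difference and -0.255 to 0.0722 for the average transgene difference. Casp6 ran from -0.176 to 0.312 for dB/dB minus wild type.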
